A study of Mus musculus with 3 samples.

Results

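The wound bed of Hgfac knockout (KO) colon was compared with that of wild-type (WT) colon at day 2 after wounding, in sections of mouse distal colon measured with Visium. In this assay tissue is placed over barcoded capture spots, each of which takes up the polyadenylated RNA of the few to many cells above it, and each transcript is counted once by a unique molecular identifier (UMI). The groups were Hgfac KO wounds and Hgfac WT wounds, both taken at day 2 as fresh-frozen tissue, and a library of intact WT colon served only to check the choice of spots. The labels give neither the deleted part of Hgfac nor the strain, age or method of wounding. Each group was 1 library that pooled 3 biological replicates, so no test between groups was possible, and brackets give 95% intervals of the counting error alone.

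Wound-bed spots were selected on measured values. A spot belonged to the bed if it held at least 3 UMIs summed over Arg1, Spp1, Plet1 and Krt14 and at least 100 of them as CPM (counts scaled to a total of 1000000 UMIs). This gave 84 of the 1212 spots of both wound libraries, and of the 1714 spots of the series. The KO wound library had 56 of 572 spots in the bed, 9.79% [7.48 to 12.5, Clopper-Pearson], and the WT wound library 28 of 640, 4.38% [2.93 to 6.26]. The intact WT library had 1 of 502 spots, with 3 Spp1 UMIs and none of the other rule genes. The KO bed spots nearest to the CPM limit had 116, 120 and 145 CPM, and 1 KO spot with 4 rule UMIs missed it at 91.3 CPM. In WT wound the nearest bed spots had 120, 130 and 140 CPM, and the spots that missed it had 85.4 and 76.6 CPM. Another 25 KO spots and 15 WT spots held 2 rule UMIs and stayed outside.

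A colon wound bed is the exposed floor of the wound. Neutrophils and then monocyte-derived macrophages fill it, fibroblasts lay down matrix beneath it, and epithelium from the adjoining crypts migrates across it. Hgfac encodes a secreted protease, HGF activator, which cleaves inactive hepatocyte growth factor (HGF) into the active molecule, and HGF acts through the receptor Met on epithelial migration and growth. Of the genes that defined the bed, Arg1 (arginase 1) and Spp1 (osteopontin) mark wound macrophages, Plet1 marks colon epithelium that migrates over a wound, and Krt14 is a keratin of basal squamous epithelium.

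Each wound library covered 3 tissue pieces that did not touch, which the labels do not tie to animals. The beds had 12, 24 and 20 spots in KO pieces 1 to 3, and 12, 11 and 5 in WT pieces 1 to 3. Every piece had a bed. The biggest patch of each piece held 7, 19 and 17 spots in KO wound, and 11, 8 and 5 in WT wound. The bed summed to 1048515 UMIs in KO wound and 629852 in WT wound, with a median of 17355 UMIs per bed spot in KO wound and 22025 in WT wound. Each library came from its own capture area of 1 slide, so group and capture area cannot be told apart. The wound libraries share 279 barcodes because a barcode is a position on the array.

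The levels of the rule genes are given as a description, since they chose the spots. They also divide the bed into spots where Arg1 and Spp1 UMIs exceeded those of Plet1 and Krt14, and all others, ties included. The first are called spots led by Arg1 and Spp1, the second spots led by Plet1 and Krt14. Values within each kind are descriptions of spots sorted by these genes. Arg1 stood at 8.41, 213 and 275 CPM in the KO beds of pieces 1 to 3, against 150, 83.1 and 84.9 CPM in the WT beds. KO piece 1 was chosen through Spp1, with 70 Spp1 UMIs and 2 Arg1 UMIs. Spp1 stood at 294, 271 and 443 CPM in the KO beds, against 444, 108 and 10.6 CPM in the WT beds. WT piece 3 was the exception among the WT beds. Its 5 spots were deep, with a median of 40399 UMIs, and held 49 Plet1 UMIs against 2 Spp1 UMIs. Plet1 stood at 25.2, 127 and 140 CPM in the KO beds, against 44.9, 4.15 and 260 CPM in the WT beds. Krt14 stood at 8.41, 45.5 and 239 CPM in the KO beds, against 140, 49.8 and 164 CPM in the WT beds. Spots led by Arg1 and Spp1 were 43 of 56 in the KO bed and 18 of 28 in the WT bed, and 1 of 5 in WT piece 3. KO piece 1 was thus the lowest of the KO beds in Arg1, Plet1 and Krt14, but lay between the others in Spp1. WT piece 3 was the lowest of the WT beds in Spp1 and the highest in Plet1 and Krt14, while its Arg1 was near that of WT piece 2.

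A gene was compared if it had at least 50 UMIs over both beds, and counted as higher or lower if its KO over WT ratio of CPM was at least 2 or at most 0.5. Of 5428 genes compared, 115 were higher in the KO bed, 2.12% of those compared, and 49 were lower, 0.903%. The median log2 ratio of all compared genes was 0.04. Gene lists are described by their members with at least 10 UMIs over both beds, here called measured, and by how many of those compared were past 2-fold. A second reading asked that every KO piece lie on the same side of every WT piece. With 3 pieces per library this order can also arise by chance, so it describes a gene and is not a test. All 3 KO pieces lay above all 3 WT pieces in 285 genes, 5.25% of those compared, and below them in 166 genes, 3.06%. Both conditions held for 47 higher and 18 lower genes. Many ratios near 2 crossed the limit under other settings: 72 of the 115 higher and 31 of the 49 lower genes remained past 2-fold with every spot thinned to 4000 UMIs, and 63 and 31 with the 2 kinds of spot weighted equally. Outside the bed, 15 of the 115 higher genes and 1 of the 49 lower genes were also past 2-fold in the same direction. Of all 12250 genes compared there, 53 were higher and 84 lower. Among the 115 higher genes, 98 had a ratio above 1 in spots led by Arg1 and Spp1 and in spots led by Plet1 and Krt14. Among the 49 lower genes 45 had a ratio under 1 in both. Both kinds of spot are parts of the bed in which the genes were called. These counts therefore follow in part from the call and lend it no support.

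The monocyte-attracting chemokines Ccl7 and Ccl2 were higher in every KO bed than in every WT bed. Ccl7 and Ccl2 encode chemokines that draw monocytes through the receptor Ccr2. Ccl7 stood at 147, 141 and 102 CPM in the KO beds, against 0, 58.1 and 10.6 CPM in the WT beds. All KO beds were above all WT beds, and the ratio of the sums was 5.03 [2.99 to 9.06], from 134 UMIs in the KO bed and 16 in the WT bed. Ccl2 stood at 126, 129 and 112 CPM in the KO beds, against 4.99, 49.8 and 21.2 CPM in the WT beds, a ratio of 4.52 [2.72 to 8.01]. The KO beds were close to each other, and the WT beds spread more widely. Ccl7 UMIs lay on 34 of the 56 KO bed spots and 6 of the 28 WT bed spots, and Ccl2 UMIs on 37 and 9. In spots led by Plet1 and Krt14 alone the Ccl7 ratio was 0.560 [0.148 to 1.86], against 7.62 [3.59 to 19.3] in spots led by Arg1 and Spp1. In a bed chosen by Plet1 and Krt14 alone it was 1.33. WT piece 2 held 14 of the 16 Ccl7 UMIs of the WT bed, and without it the ratio of Ccl2 was 9.50. Of the 11 measured genes of monocyte chemokines and their receptor, all had a ratio above 1. Only Ccl2 and Ccl7 of the 7 compared were past 2-fold, beside 2.12% of all compared genes higher. The median log2 ratio was 0.63. The median turned to -0.07 where the bed was redefined by Plet1 and Krt14 alone.

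Levels of both chemokines declined with distance from the KO bed. Ccl2 averaged 122 CPM in the KO bed, 49.0 in spots 1 step away, 27.5 at 2 steps and 11.8 at 3 to 4 steps. In WT wound Ccl2 stood at 27.0 CPM in the bed and at 11.5, 10.9 and 12.5 CPM in those rings. Ccl7 averaged 128 CPM in the KO bed and 51.7, 23.7 and 10.7 CPM in the same rings. In WT wound Ccl7 showed no such peak in the bed, at 25.4 CPM in the bed and 29.6, 33.8 and 20.1 CPM in the rings around it. The KO excess of Ccl7 was therefore seen in the bed and its first ring, while at 2 and at 3 to 4 steps WT wound held more. Over all spots outside the bed the KO over WT ratio of Ccl7 was 1.26 [0.979 to 1.63] and that of Ccl2 2.43 [1.78 to 3.32].

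**Figure D1:**
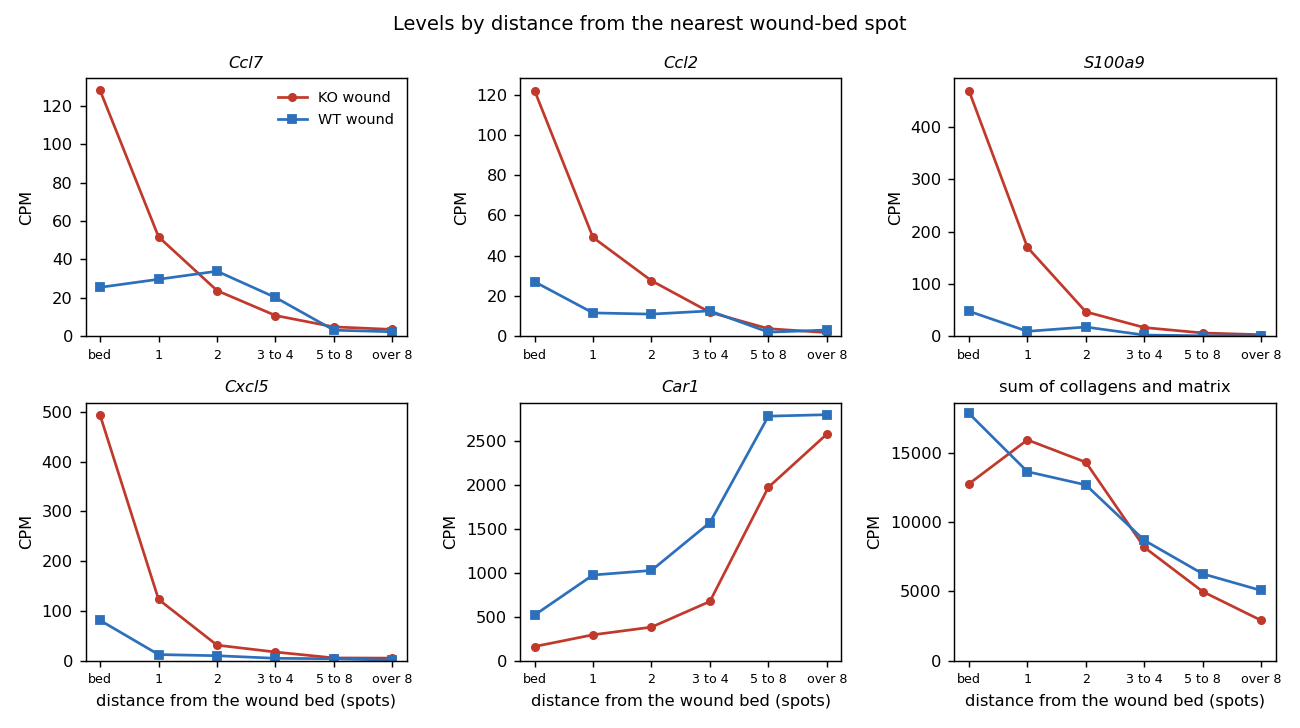
Level in CPM (linear axis from 0) by distance in spot steps from the nearest wound-bed spot of the same piece, for KO wound (red circles) and WT wound (blue squares). Ccl7, Ccl2, S100a9 and Cxcl5 are highest in the KO bed and fall with distance, Car1 is lower in KO wound in every ring, and the sum of the collagen and matrix list is lower in KO wound in the bed but not in the first 2 rings.

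Other genes whose KO and WT beds did not overlap included matrix, granule and signalling proteins. Thbs1 encodes thrombospondin 1, a matrix protein released by platelets and macrophages. It stood at 147, 436 and 226 CPM in the KO beds, against 125, 133 and 111 CPM in the WT beds, a ratio of 2.36 [1.83 to 3.06]. Srgn encodes serglycin, the proteoglycan of leukocyte granules. It stood at 202, 591 and 303 CPM in the KO beds, against 194, 158 and 122 CPM in the WT beds, a ratio of 2.49 [1.99 to 3.13]. For Thbs1 and Srgn the beds separated by a small margin at KO piece 1, and without KO piece 2 the ratios were 1.59 and 1.67. Outside the bed they were 1.78 and 1.61. Dusp1, a phosphatase that switches off MAP kinases, stood at 122, 95.8 and 91.6 CPM in the KO beds, against 24.9, 49.8 and 63.7 CPM in the WT beds, a ratio of 2.17 [1.43 to 3.40], with 1.81 outside the bed. Clec4d, a C-type lectin receptor of myeloid cells, stood at 33.7, 129 and 25.4 CPM in the KO beds, against 4.99, 20.8 and 5.30 CPM in the WT beds, a ratio of 6.18 [2.85 to 15.9]. The Clec4d ratio was 2.57 without KO piece 2 and 4.29 outside the bed, and that of Dusp1 was 1.79 without WT piece 1.

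Several of these genes were steady among KO beds. Cd93, a lectin-like receptor of endothelium and myeloid cells, stood at 130, 132 and 135 CPM in the KO beds, against 74.8, 95.5 and 15.9 CPM in the WT beds, and its ratio of 2.04 [1.43 to 2.96] became 1.54 without WT piece 3. Trf, which encodes the iron carrier transferrin, stood at 286, 251 and 305 CPM in the KO beds, against 140, 191 and 69.0 CPM in the WT beds, and its ratio of 2.02 [1.59 to 2.60] became 1.67 without WT piece 3. Hk2 encodes hexokinase 2, the first enzyme of glycolysis. It stood at 46.3, 79.0 and 45.8 CPM in the KO beds, against 19.9, 16.6 and 21.2 CPM in the WT beds, a ratio of 3.10 [1.66 to 6.33]. Its ratio was 1.95 in a bed chosen by Arg1 and Spp1 alone, and 0.864 [0.750 to 0.994] outside the bed. Mybbp1a, a nucleolar protein, had a ratio of 2.19 [1.39 to 3.55], with 79.9 to 96.6 CPM in the KO beds and 37.4 to 42.4 CPM in the WT beds. Tspan31, a tetraspanin, had a ratio of 2.26 [1.5 to 3.51], with 99.2 to 118 CPM in the KO beds and 26.5 to 58.1 CPM in the WT beds. Rrm2 encodes a subunit of ribonucleotide reductase, which makes DNA precursors. Its ratio was 2.04 [1.29 to 3.33], with 71.8 to 92.5 CPM in the KO beds and 31.8 to 49.9 CPM in the WT beds. Rrm2 was about as much higher outside the bed, at 1.95 [1.54 to 2.46]. With spots thinned to 4000 UMIs the ratios of Mybbp1a, Tspan31 and Rrm2 were 1.16, 1.21 and 1.02, and with equal weight per spot that of Mybbp1a was 1.76. Without WT piece 3 those of Tspan31 and Rrm2 were 1.90 and 1.88.

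**Figure D2:**
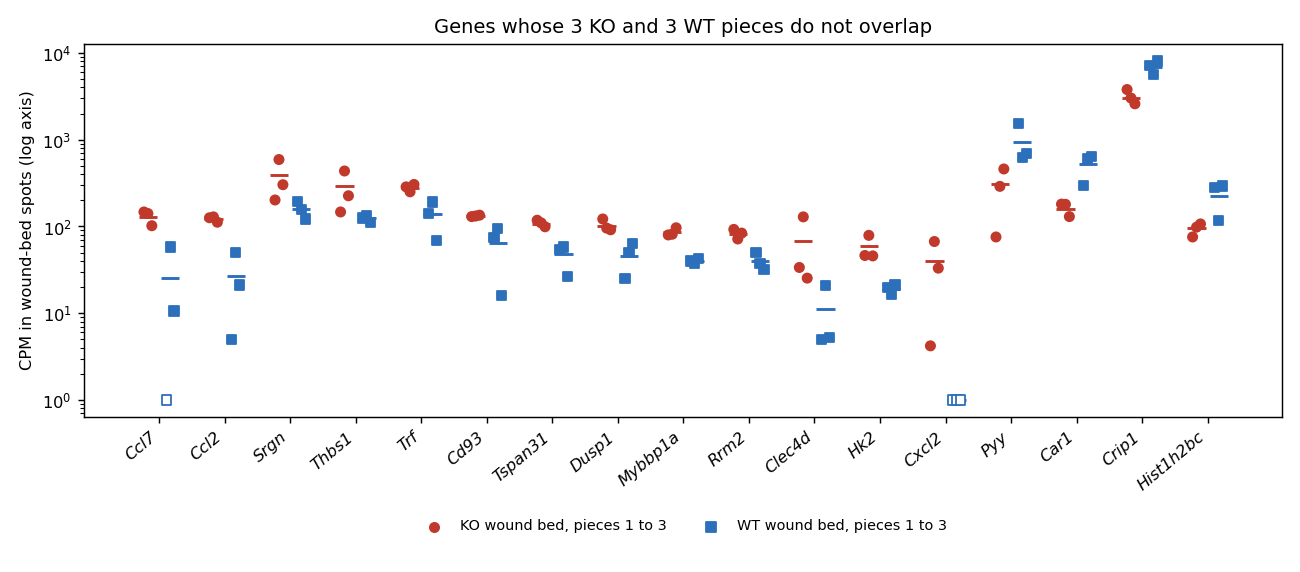
CPM in wound-bed spots (log axis) of genes whose KO and WT pieces did not overlap, with KO pieces 1 to 3 as red circles left of WT pieces 1 to 3 as blue squares for each gene. Horizontal lines are the CPM of all bed spots of a library, and open symbols at 1 are counts of 0. Ccl7 is at 0 in WT piece 1 and Cxcl2 in every WT bed, and Pyy, Car1, Crip1 and Hist1h2bc are lower in every KO bed.

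Neutrophil genes were higher in the KO bed as a group, but not in all of its pieces. Of the 20 genes of the list, 13 were measured. The summed level of the list was 269, 2117 and 1256 CPM in KO pieces 1 to 3, against 299, 253 and 419 CPM in the WT beds. KO pieces 2 and 3 were above every WT bed and KO piece 1 lay among them. The 13 measured members had a ratio above 1, and 5 of the 6 compared were past 2-fold, beside 2.12% of all compared genes. The median log2 ratio was 1.66. S100a8 and S100a9, the subunits of calprotectin, make up much of the protein of neutrophil cytoplasm. S100a9 stood at 50.5, 781 and 394 CPM in the KO beds, against 74.8, 16.6 and 58.3 CPM in the WT beds, a ratio of 9.87 [6.83 to 14.8]. S100a8 stood at 37.9, 649 and 346 CPM in the KO beds, against 59.8, 8.31 and 42.4 CPM in the WT beds, a ratio of 11.4 [7.40 to 18.3]. Mmp9, a gelatinase stored in neutrophil granules, stood at 29.4, 129 and 140 CPM in the KO beds, against 34.9, 4.15 and 5.30 CPM in the WT beds, a ratio of 7.74 [3.94 to 17.4]. Of the receptors of the list, Cxcr2 had 38 UMIs in the KO bed and 3 in the WT bed, and Csf3r had a ratio of 4.91 with the pieces apart. Ly6g, a surface protein of neutrophils, had 177 UMIs in the KO bed and 105 in the WT bed, a ratio of 1.01 [0.791 to 1.30]. The ratios rested on few pieces: without KO piece 2 they were 5.56 for S100a9 and 6.58 for S100a8. WT piece 1 held 7 of the 9 Mmp9 UMIs of the WT bed.

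The neutrophil difference was not limited to the bed. Outside it, S100a9 had a KO over WT ratio of 10.7 [7.58 to 15.5] and S100a8 of 10.5 [7.0 to 16.3], and the measured members of the list had a median log2 ratio of 1.90. The summed list differed less there, with 605 CPM in KO wound and 398 CPM in WT wound, a ratio of 1.52 [1.46 to 1.59], against 4.33 [3.73 to 5.05] in the bed. In KO wound the sum fell from 1375 CPM in the bed to 326 CPM at 2 steps. In spots over 8 steps from the bed it stood at 1165 CPM, against 440 CPM in WT wound. Colonocyte genes summed to 30627 CPM at 2 steps and 85040 CPM over 8 steps in KO wound. In WT wound they summed to 35008 and 51238 CPM. The part of cells other than neutrophils in the sum of the neutrophil list was not tested. S100a9 averaged 470 CPM in the KO bed, 170 CPM 1 step away and 46.4 CPM at 2 steps, against 47.6, 9.05 and 17.3 CPM in WT wound. The KO over WT ratio of S100a9 in the bed, divided by that outside it, was 0.923 [0.559 to 1.53, log-normal approximation of the counting error].

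Of the chemokines that attract neutrophils, Cxcl5 and Cxcl2 had their high levels in the same pieces. Cxcl5 stood at 25.2, 967 and 272 CPM in the KO beds, against 155, 29.1 and 69.0 CPM in the WT beds. The ratio was 6.09 [4.56 to 8.29], and 2.21 without KO piece 2, which held the highest level. Cxcl2 had 42 UMIs in the KO bed, of which piece 1 held 1 at 4.21 CPM, and none in the WT bed. Taking 3 UMIs over the WT bed as the floor, it was at least 8.41-fold higher. In the list of these chemokines 5 of 6 measured members had a ratio above 1 and the median log2 ratio was 2.07, with 1.81 outside the bed over the 4 members counted there. Cxcl3 was the exception, with 14 UMIs in the KO bed and 10 in the WT bed. Il1b encodes interleukin 1 beta, which induces such chemokines. It stood at 88.3, 184 and 183 CPM in the KO beds, against 0, 8.31 and 159 CPM in the WT beds, a ratio of 3.19 [2.18 to 4.81]. WT piece 3 alone overlapped with the KO beds and held 30 of the 32 Il1b UMIs of the WT bed. In a bed chosen by Plet1 and Krt14 alone the ratio was 1.81. The interleukin 1, 6 and TNF list, which includes Il1b, had a median log2 ratio of 0.24, and Il1b was the 1 of 8 compared past 2-fold.

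The promoters of S100a8, S100a9 and Cxcl2, which moved together over the KO beds, and of Retnla, which did not, are shown from 250 bases before to 50 bases after the RefSeq transcription start in GRCm38.p6. Capitals mark matches on either strand to the C/EBP pattern TTGCNNAA or to an NF-kB pattern, and the AP-1 pattern TGANTCA was also searched. S100a8 lies at chr3:90668821-90669120 on the plus strand and had no match. S100a9 lies at chr3:90695672-90695971 on the minus strand and had 1 C/EBP match. Cxcl2 lies at chr5:90903649-90903948 on the plus strand and had 2 NF-kB matches, and Retnla lies at chr16:48842359-48842658 on the plus strand and had 1 C/EBP match. Of 27025 promoters of the same length, 10.8% held a C/EBP match, 4.71% an NF-kB match and 7.93% an AP-1 match, and a match describes letters, not a bound site.
S100a8: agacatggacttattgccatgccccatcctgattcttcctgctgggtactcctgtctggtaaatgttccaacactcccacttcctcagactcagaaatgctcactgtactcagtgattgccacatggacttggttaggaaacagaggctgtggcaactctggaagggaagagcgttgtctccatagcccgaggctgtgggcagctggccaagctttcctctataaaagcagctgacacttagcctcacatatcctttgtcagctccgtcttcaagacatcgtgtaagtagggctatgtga
S100a9: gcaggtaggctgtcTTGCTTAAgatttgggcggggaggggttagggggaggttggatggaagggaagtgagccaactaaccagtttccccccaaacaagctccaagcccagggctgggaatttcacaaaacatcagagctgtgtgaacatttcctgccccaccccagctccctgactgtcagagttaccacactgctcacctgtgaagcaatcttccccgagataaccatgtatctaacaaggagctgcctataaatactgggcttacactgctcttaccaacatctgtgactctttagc
Cxcl2: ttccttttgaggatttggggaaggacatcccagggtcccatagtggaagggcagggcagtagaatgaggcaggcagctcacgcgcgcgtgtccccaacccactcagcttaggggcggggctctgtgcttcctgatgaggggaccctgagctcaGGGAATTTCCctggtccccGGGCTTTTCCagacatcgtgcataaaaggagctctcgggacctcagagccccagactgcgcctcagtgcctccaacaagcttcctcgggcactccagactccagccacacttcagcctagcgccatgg
Retnla: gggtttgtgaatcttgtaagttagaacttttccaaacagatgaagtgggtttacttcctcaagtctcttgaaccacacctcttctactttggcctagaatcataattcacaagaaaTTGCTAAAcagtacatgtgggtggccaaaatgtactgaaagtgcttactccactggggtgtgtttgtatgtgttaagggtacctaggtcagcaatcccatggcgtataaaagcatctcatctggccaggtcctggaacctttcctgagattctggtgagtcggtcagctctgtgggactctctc

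Macrophage genes were higher in the KO bed in part, and piece 1 set much of the difference. Of the wound macrophage list 20 of 24 measured members had a ratio above 1. Of the 20 compared, 8 were higher past 2-fold, beside 2.12% of all compared genes. The median log2 ratio was 0.85, with 0.12 for the same members outside the bed. Without KO piece 1 the median was 0.08, and without KO piece 1 and WT piece 3 it was -0.08. The summed ratio of the list was 1.12 [1.09 to 1.16]. In spots led by Arg1 and Spp1 the median was 0.57 and the summed ratio 1.13 [1.08 to 1.17]. In spots led by Plet1 and Krt14 they were 0.13 and 0.790 [0.748 to 0.835]. Arg1 and Spp1 helped to choose the spots, and the part of this choice in the values was not tested. Retnla encodes a secreted protein of alternatively activated macrophages. It stood at 1691, 4.79 and 0 CPM in the KO beds, against 19.9, 24.9 and 0 CPM in the WT beds. The ratio of the sums, 24.3 [13.1 to 51.0], came from KO piece 1 alone, and the other KO beds held 2 UMIs. Adgre1 encodes the macrophage antigen F4/80. It stood at 244, 83.8 and 50.9 CPM in the KO beds, against 34.9, 91.4 and 21.2 CPM in the WT beds, and its ratio of 2.06 [1.38 to 3.13] became 1.29 without KO piece 1. Lgals3, which encodes galectin 3, is made by macrophages and by epithelium. It stood at 1893, 1933 and 1867 CPM in the KO beds, against 2184, 1749 and 5665 CPM in the WT beds, and its ratio of 0.621 [0.583 to 0.661] became 0.976 without WT piece 3. Resident macrophage genes had a median log2 ratio of 0.33 and MHC class II genes one of 0.23, and without KO piece 1 these were -0.17 and -0.31. In spots led by Arg1 and Spp1 the 2 medians were -0.02 and 0.34. In spots led by Plet1 and Krt14 they were 0.01 and -0.38. H2-Aa, a class II chain, stood at 1232, 431 and 242 CPM in the KO beds, against 269, 370 and 599 CPM in the WT beds, a ratio of 1.33 [1.15 to 1.55] and of 0.834 without KO piece 1.

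KO piece 3 had the highest levels of Hmox1, Vegfa and hemoglobin. Hmox1 encodes heme oxygenase 1, which breaks down the heme of red cells. It stood at 25.2, 93.4 and 379 CPM in the KO beds, against 44.9, 104 and 5.30 CPM in the WT beds, a ratio of 3.33 [2.31 to 4.92], and 1.24 without KO piece 3. Vegfa, the vascular growth factor, stood at 12.6, 35.9 and 107 CPM in the KO beds, against 54.8, 16.6 and 5.30 CPM in the WT beds, a ratio of 2.25 [1.28 to 4.19], and 1.08 without KO piece 3. Hbb-bs, a beta globin, stood at 25.2, 9.58 and 844 CPM in the KO beds, against 15, 87.2 and 117 CPM in the WT beds. A single KO spot held 69.0% of its KO bed UMIs, and the ratio of 4.47 [3.28 to 6.22] became 0.209 without KO piece 3. Hba-a1, an alpha globin, had a ratio of 4.24 [2.58 to 7.38], with 126 of its 127 KO bed UMIs in that piece. The part of red cells in the other values of KO piece 3 was not tested. Pf4, the chemokine platelet factor 4 made by platelets and macrophages, stood at 816, 342 and 407 CPM in the KO beds, against 84.8, 345 and 84.9 CPM in the WT beds, a ratio of 2.57 [2.10 to 3.18]. WT piece 2 alone overlapped with the KO beds, and the ratio was 5.59 without it, 1.65 without KO piece 1 and WT piece 3, and 1.38 with the 2 kinds of spot weighted equally.

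Blood vessel genes leaned to the KO bed, while lymphatic endothelium genes did not. Of the 5 measured lymphatic genes 0 had a ratio above 1, and the median log2 ratio was -0.47. Their list had a summed ratio of 0.801 [0.634 to 1.01]. Of the blood endothelium list 11 of 15 members had a ratio above 1. Of the 8 compared, 3 were higher past 2-fold, beside 2.12% of all compared genes. The median log2 ratio was 0.75, with 0.29 outside the bed. The KO beds summed to 543, 534 and 872 CPM of these genes and the WT beds to 399, 548 and 244 CPM, so the beds overlapped at WT piece 2. Without KO piece 3 the median was 0.08. Cdh5, the cadherin of endothelial junctions, had a ratio of 2.06 with the pieces apart. Egfl7, a secreted endothelial protein, stood at 25.2, 47.9 and 109 CPM in the KO beds, against 0, 54.0 and 10.6 CPM in the WT beds, and its ratio of 2.76 [1.57 to 5.20] became 1.67 without KO piece 3 and 1.88 without WT piece 1. In the list of endothelial adhesion genes the median log2 ratio was 1.26 over 7 members. Of the 4 compared, Lrg1, a glycoprotein of inflamed vessels and neutrophils, was past 2-fold. It stood at 0, 81.4 and 117 CPM in the KO beds, against 9.97, 4.15 and 15.9 CPM in the WT beds, a ratio of 8.01 [3.52 to 22.5].

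**Figure D3:**
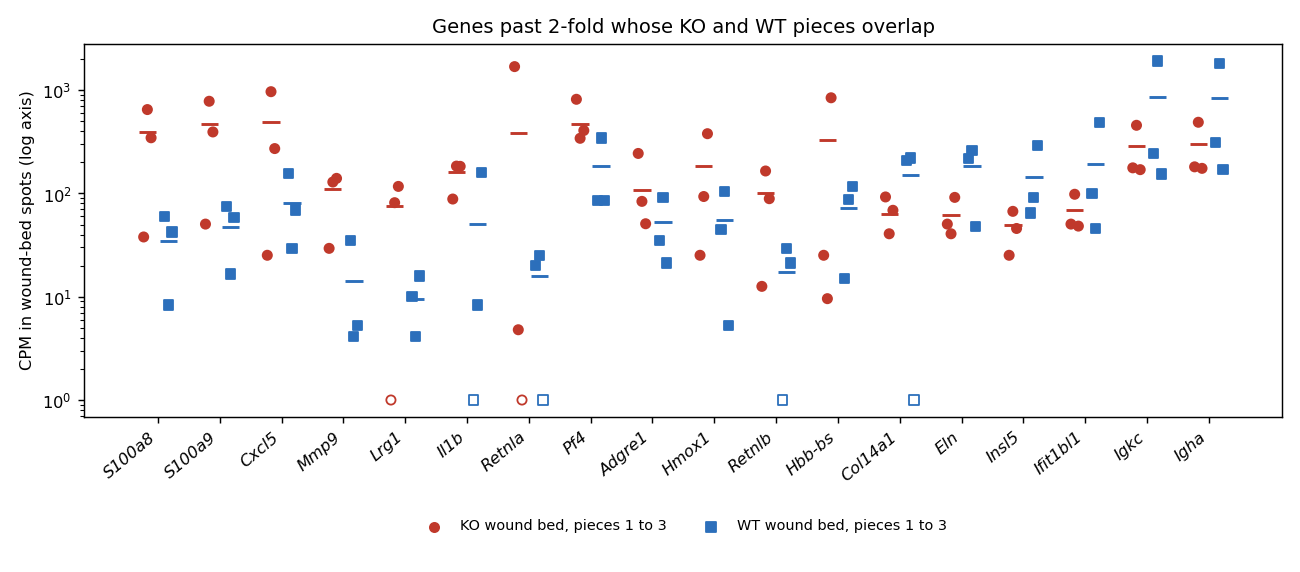
CPM in wound-bed spots (log axis) of genes past 2-fold whose KO and WT pieces overlapped, drawn as in the plot of genes with separate pieces. KO piece 1 is lowest among the KO beds for S100a8, S100a9, Cxcl5, Mmp9 and Lrg1 and highest for Retnla, KO piece 3 is highest for Hbb-bs and Hmox1, and WT piece 2 is highest for Igkc and Igha.

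Matrix genes were lower in the KO bed almost throughout, by small ratios. Of the collagen and matrix list 24 of 25 members had a ratio under 1, and the median log2 ratio was -0.51. Only 3 of the 24 compared were past 2-fold, beside 0.903% of all compared genes. Outside the bed the median of the same members was 0.10. Summed over the list the KO beds held 16615, 13020 and 10145 CPM, against 23089, 23679 and 4779 CPM in the WT beds. All KO beds were below WT pieces 1 and 2 and above WT piece 3, the bed led by Plet1 and Krt14. The median stayed below 0 on leaving out each piece in turn, between -0.92 and -0.25. In spots led by Arg1 and Spp1 the summed ratio was 0.583 [0.566 to 0.599], and in spots led by Plet1 and Krt14 it was 0.591 [0.557 to 0.627]. In the first ring around the bed the sum was higher in KO wound, at 15926 CPM, than in WT wound, at 13634 CPM.

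The members past 2-fold were Eln, Col14a1 and Col6a2. Eln encodes elastin, the protein of elastic fibres. It stood at 50.5, 40.7 and 91.6 CPM in the KO beds, against 219, 262 and 47.7 CPM in the WT beds, a ratio of 0.337 [0.245 to 0.460], and of 0.543 with spots thinned to 4000 UMIs. Col14a1 encodes a collagen that binds to the surface of fibrils. It stood at 92.5, 40.7 and 68.7 CPM in the KO beds, against 209, 220 and 0 CPM in the WT beds, and its ratio of 0.417 [0.300 to 0.577] was 0.510 without WT piece 1 and 0.583 without WT piece 2. The fibrillar collagens Col1a1, Col1a2 and Col3a1 had ratios of 0.715, 0.718 and 0.601. Lox, the lysyl oxidase that crosslinks collagen, marked both beds. It averaged 169 CPM in the KO bed and 12.4 CPM outside it, against 208 and 10.1 CPM in WT wound, and its ratio was 0.812 [0.644 to 1.03]. Lysyl oxidases and other crosslinking enzymes had a median log2 ratio of 0.09 and none of 10 compared was past 2-fold. The receptor Tgfbr2, through which TGF-beta induces matrix genes, stood at 135, 113 and 150 CPM in the KO beds, against 314, 228 and 111 CPM in the WT beds. Its ratio was 0.596 [0.468 to 0.760]. Fibroblast and BMP niche genes had a median log2 ratio of -0.07. Within the kinds of spot both lists had medians below 0. In spots led by Arg1 and Spp1 the median was -0.35 for the crosslinking enzymes and -0.41 for the fibroblast list. In spots led by Plet1 and Krt14 the 2 medians were -0.34 and -0.28. In bulk spots, fewer cells of a type and less RNA per cell cannot be told apart.

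Among genes of the epithelium, Pyy, a peptide hormone of enteroendocrine cells, stood at 75.7, 290 and 460 CPM in the KO beds, against 1526, 627 and 700 CPM in the WT beds. All KO beds were below all WT beds, at a ratio of 0.326 [0.284 to 0.375], but a single spot held 49.4% of the KO UMIs and another 44.0% of the WT UMIs. In spots led by Arg1 and Spp1 its ratio was 2.01 [1.44 to 2.86], and in spots led by Plet1 and Krt14 it was 0.205 [0.166 to 0.252]. With both kinds weighted equally it was 0.640. Insl5, a hormone of the same cell family in the colon, had a ratio of 0.347 [0.242 to 0.494] and of 0.625 without WT piece 3. Car1 encodes carbonic anhydrase 1 of surface colonocytes. It stood at 181, 180 and 130 CPM in the KO beds, against 294, 611 and 637 CPM in the WT beds, a ratio of 0.311 [0.257 to 0.376]. It was also lower outside the bed, at 0.604 [0.590 to 0.619]. Crip1, a small LIM-domain protein abundant in gut epithelium and leukocytes, was counted on every bed spot. It stood at 3786, 3020 and 2592 CPM in the KO beds, against 7179, 5653 and 8089 CPM in the WT beds, a ratio of 0.442 [0.422 to 0.462]. The ratio was 0.526 with equal weight per spot and 0.559 with spots thinned to 4000 UMIs, both short of 2-fold. Outside the bed the ratio was 0.917 [0.906 to 0.928]. Hist1h2bc, a histone H2B gene, stood at 75.7, 98.2 and 107 CPM in the KO beds, against 284, 116 and 292 CPM in the WT beds, a ratio of 0.433 [0.332 to 0.564], and of 0.532 without KO piece 1 and WT piece 3.

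Absorptive colonocyte genes as a list had a median log2 ratio of -0.23, with 6 of 26 members above 1 and Car1 as the 1 of 24 compared that was past 2-fold. In spots led by Plet1 and Krt14 its median was 0.30 and its summed ratio 1.16 [1.13 to 1.18], in spots led by Arg1 and Spp1 they were -0.18 and 0.855, and outside the bed the median was 0.05. Goblet cell genes had a median of 0.36, with 11 of 13 above 1, and of 1.07 in spots led by Plet1 and Krt14. Muc2, the gel-forming mucin, stood at 778, 2028 and 1470 CPM in the KO beds, against 578, 1067 and 679 CPM in the WT beds, a ratio of 1.93 [1.75 to 2.14] that missed the 2-fold limit. Retnlb, an antibacterial protein of goblet cells, stood at 12.6, 165 and 89.0 CPM in the KO beds, against 0, 29.1 and 21.2 CPM in the WT beds, a ratio of 5.84 [3.14 to 12.1], and of 3.45 without KO piece 2 and 9.93 without WT piece 2. It was also higher outside the bed, at 3.77 [3.26 to 4.38].

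Genes of the migrating and fetal-like epithelium had a median log2 ratio of -0.09, and 1 of 20 compared was past 2-fold. That gene, Ly6d, a surface protein of squamous epithelium, stood at 25.2, 47.9 and 221 CPM in the KO beds, against 15, 12.5 and 101 CPM in the WT beds. Its ratio of 2.72 [1.75 to 4.37] became 1.0 without KO piece 3, and outside the bed it was 0.538 [0.425 to 0.676]. Clu, which encodes clusterin and marks regenerating colon epithelium, stood at 374, 812 and 1137 CPM in the KO beds, against 2398, 1126 and 456 CPM in the WT beds, a ratio of 0.627 [0.570 to 0.690] and of 1.0 without WT piece 1. Emp1, an epithelial membrane protein, stood at 215, 386 and 496 CPM in the KO beds, against 533, 245 and 1692 CPM in the WT beds, and its ratio of 0.504 [0.441 to 0.576] was 1.03 without WT piece 3.

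Among RNAs of the HGF pathway none of those compared was past 2-fold in the bed, and the activity of the proteins was not measured. Hgfac itself stood at 16.8, 45.5 and 45.8 CPM in the KO beds, against 94.7, 37.4 and 74.3 CPM in the WT beds. The beds overlapped, and the ratio was 0.586 [0.372 to 0.924], from 41 UMIs in the KO bed and 42 in the WT bed. Visium reads the 3' ends of transcripts and the deleted part of the gene is not given, so these counts do not check the genotype. Hgf, the growth factor, had 4 UMIs in the KO bed and 1 in the WT bed, too few to compare. Its receptor Met stood at 16.8, 35.9 and 45.8 CPM in the KO beds, against 59.8, 24.9 and 47.7 CPM in the WT beds, a ratio of 0.823 [0.488 to 1.41]. Mst1r, which binds macrophage-stimulating protein, an HGF relative, had a ratio of 0.966 [0.559 to 1.70]. Among other proteases that cleave the HGF precursor or its relatives, St14 (matriptase) had a ratio of 0.980 [0.746 to 1.30], Plau (urokinase) of 1.46 [0.575 to 4.16] from 17 KO and 7 WT UMIs, and Hpn (hepsin) had 4 KO UMIs and 1 WT UMI. Plat, which encodes the plasminogen activator tPA, had a ratio of 0.685 [0.445 to 1.06]. Mst1, Klkb1 and F2 had 0 UMIs in both beds. The inhibitor Spint1 stood at 88.3, 218 and 196 CPM in the KO beds, against 234, 162 and 329 CPM in the WT beds, a ratio of 0.767 [0.615 to 0.958]. Outside the bed it was 1.17 [1.10 to 1.25]. The second inhibitor, Spint2, had a ratio of 0.985 [0.873 to 1.11].

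Of the adaptors downstream of the receptor, Gab1 had a ratio of 0.801 [0.417 to 1.57], Sos1 of 1.89 [0.779 to 5.23] and Cd44, a coreceptor of Met, of 1.2 [0.957 to 1.5]. Grb2 had a ratio of 1.35 [0.980 to 1.88], and its KO beds, at 168, 117 and 99.2 CPM, lay above its WT beds, at 94.7, 95.5 and 79.6 CPM. None of the 9 genes of the pathway compared was past 2-fold, and the median log2 ratio of the 12 measured was -0.04, with 0.22 outside the bed. Feedback and early-response genes of ERK signalling, which lies downstream of Met and of many other receptors, had a median of 0.43 with 20 of 25 above 1. Dusp1 and Ier3 were the 2 of 16 compared past 2-fold, beside 2.12% of all compared genes higher. Ier3 stood at 46.3, 122 and 267 CPM in the KO beds, against 99.7, 54.0 and 90.2 CPM in the WT beds, and its ratio of 2.01 [1.45 to 2.81] became 1.19 without KO piece 3. Fos, a transcription factor of the early response, stood at 79.9, 223 and 209 CPM in the KO beds, against 49.9, 70.6 and 854 CPM in the WT beds. Its ratio of 0.620 [0.505 to 0.762] turned to 3.02 without WT piece 3.

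Interferon-induced genes had medians of opposite sign in the bed and outside it. In the bed their median log2 ratio was -0.40 with 7 of 19 members above 1, and over the same members outside the bed it was 0.42. None of 8 compared in the bed was past 2-fold. The summed ratio of the list was 0.990 [0.919 to 1.07] in the bed and 1.25 [1.21 to 1.28] outside it. Within the bed the median was -0.23 in spots led by Arg1 and Spp1 and -0.07 in spots led by Plet1 and Krt14. Irf7, the transcription factor that amplifies interferon production, stood at 54.7, 62.3 and 53.4 CPM in the KO beds, against 64.8, 87.2 and 101 CPM in the WT beds. All KO beds were below all WT beds, at a ratio of 0.680 [0.462 to 1.0], while outside the bed Irf7 had a ratio of 2.08 [1.86 to 2.33]. The bed median rested on single pieces: it was 0.00 without KO piece 3 and 0.09 without WT piece 3. Ifit1bl1, a relative of the interferon-induced Ifit genes that is outside this list, stood at 50.5, 98.2 and 48.3 CPM in the KO beds, against 99.7, 45.7 and 483 CPM in the WT beds. Its ratio of 0.355 [0.261 to 0.478] was 0.978 without WT piece 3.

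**Figure D4:**
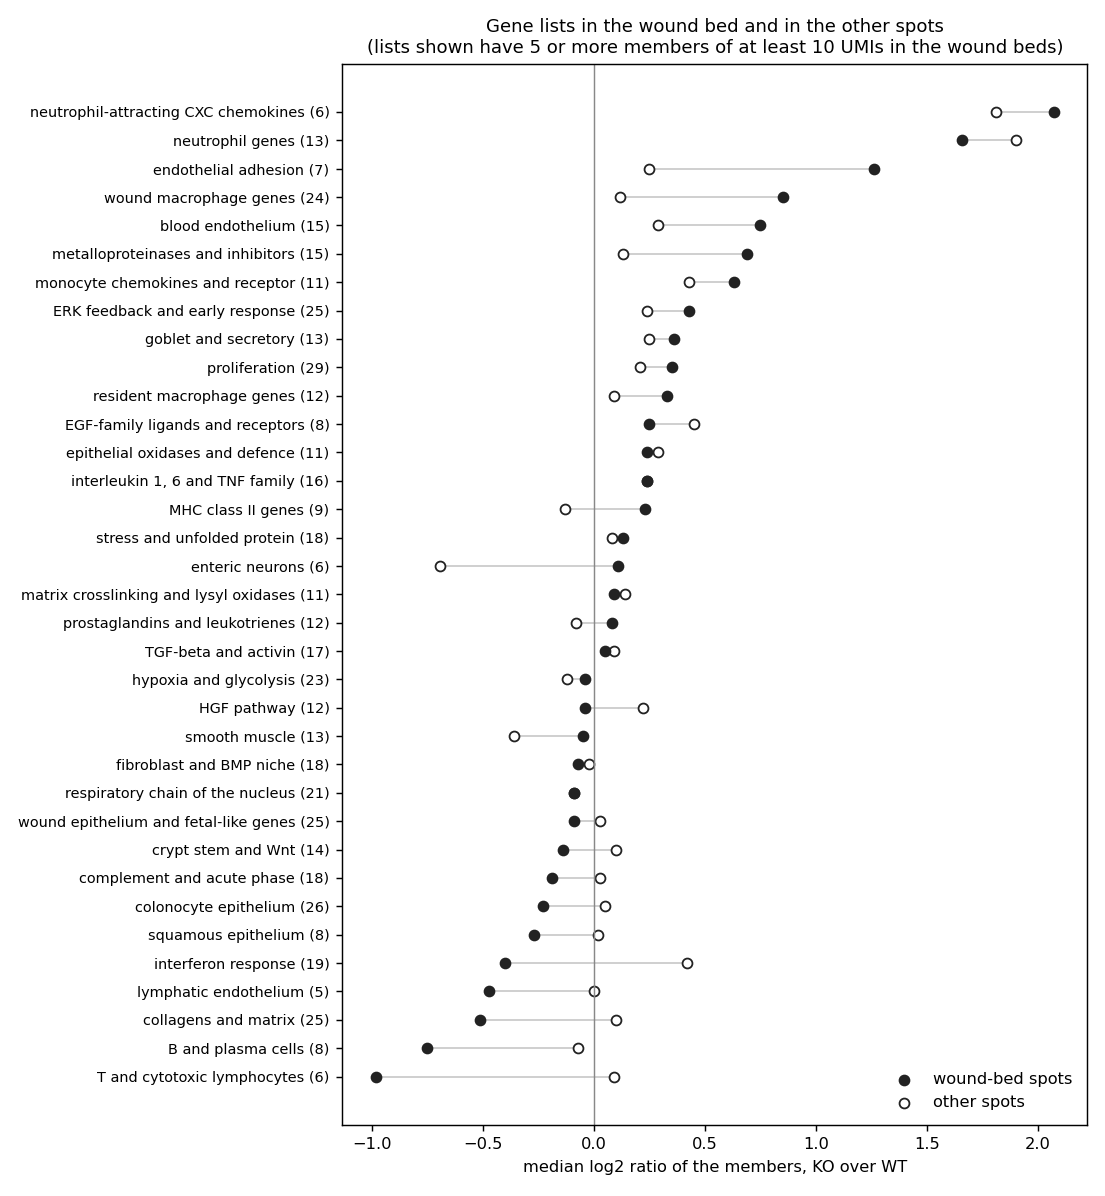
Median log2 ratio, KO over WT, of the members of each gene list in wound-bed spots (filled) and in the other spots (open), for most of the lists with at least 5 members of 10 or more UMIs in the beds, the number in parentheses. Neutrophil genes and their chemokines are high in both kinds of spots, whereas the lists of wound macrophage genes, endothelial adhesion genes, collagens and interferon genes differ between them.

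Part of the B and plasma cell genes was lower in the KO bed, and a single spot of WT piece 2 held most of the WT Igkc UMIs. Of the 8 measured members of the list, 4 had a ratio above 1. Of the 6 compared, 4 were lower past 2-fold, beside 0.903% of all compared genes. The median log2 ratio was -0.75 and the summed ratio 0.454 [0.419 to 0.492]. Igkc and Igha encode the constant chains of the antibodies secreted in the gut. Igkc stood at 177, 457 and 170 CPM in the KO beds, against 244, 1919 and 154 CPM in the WT beds. A single WT spot held 61.7% of the WT UMIs, and the ratio of 0.334 [0.289 to 0.385] was 1.43 without WT piece 2. Igha stood at 181, 489 and 175 CPM in the KO beds, against 314, 1828 and 170 CPM in the WT beds, and its ratio of 0.355 [0.308 to 0.409] was 1.23 without that piece. Iglc1, a lambda constant chain, behaved otherwise. It had 0 UMIs in every KO bed and 39.9, 179 and 31.8 CPM in the WT beds, and it was also lower outside the bed, at 30.8 CPM in KO wound and 416 CPM in WT wound. Antibody genes are near copies of each other, and how the counting divided reads among them is not known.

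Markers of other tissue layers were present in every bed, since a spot covers several cells. Smooth muscle genes summed to 14874, 5637 and 3901 CPM in the KO beds, against 12704, 7564 and 1151 CPM in the WT beds, with a median log2 ratio of -0.05. Colonocyte genes summed to 17608, 34795 and 28581 CPM in the KO beds, against 25806, 29341 and 48885 CPM in the WT beds. KO piece 1, which lacked the neutrophil excess, was the KO bed with the most smooth muscle and the least colonocyte RNA, and WT piece 3, with the least collagen, had the least smooth muscle and the most colonocyte RNA. The part of this tissue mix in the results was not tested. Mitochondrial genes held 3.03% of the KO bed UMIs and 3.05% of the WT bed UMIs. Proliferation genes had a median log2 ratio of 0.35 with 24 of 29 members above 1, and Rrm2 was the 1 of 26 compared past 2-fold.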

How the data were processed

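Per the labels, fresh-frozen distal colon was measured with Visium spatial gene expression. The deposited matrices hold the authors' raw UMI counts per gene and spot over tissue, made with Space Ranger 1.2.1 per the file headers, with mm10 named in the submitters' processing notes. From these counts, bed spots were chosen by the rule above, their counts were summed per library and per piece of connected spots of at least 20, and divided by the summed UMIs to CPM. The ratio, KO over WT, has an exact conditional binomial 95% interval, and shares have exact Clopper-Pearson intervals. Both cover counting error only. Genes with 0 UMIs were bounded at 3 UMIs over the bed. No spots were filtered and no doublet caller was run. The members and the 43 gene lists were chosen with earlier results of these data known. Genes were named if called with at least 100 UMIs over both beds, without mitochondrial, ribosomal, antibody variable and unnamed genes: up to 15 per direction with separate pieces and up to 5 with overlapping pieces, ranked by the interval bound nearest 1. Further genes named were up to 2 per direction and list, and the HGF pathway. Some genes the rule names are not reported here. Csf3r, Cxcr2, Ly6g, Cdh5, Col6a2, Col1a1, Col1a2 and Col3a1 were chosen after their values were seen. Alternatives were other rule limits, each pair of rule genes, thinning to 4000 UMIs, equal weights, TMM scaling (edgeR 4.0.16), other count limits and leaving out each piece. Python 3.11.15, numpy 2.4.6, scipy 1.17.1 and pandas 2.3.3 were used, and the scripts were tested on simulated data.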

Additional observations from a re-analysis of the deposited data

Results flagged for a closer look

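The genes here had KO over WT ratios past 2-fold in the bed and on the other side of 1 outside it, a difference between bed and rest that was not tested across samples. Lower in the KO bed were Pyy, at a ratio of 0.326 in the bed and 1.21 outside it, Igkc, at 0.334 and 1.13, and Igha, at 0.355 and 1.10. Eln stood at 0.337 in the bed and 1.17 outside it, and Ifit1bl1 at 0.355 and 2.04. Higher in the KO bed were Hk2, at 3.10 in the bed and 0.864 outside it, Ly6d, at 2.72 and 0.538, Hbb-bs, at 4.47 and 0.627, and Hba-a1, at 4.24 and 0.425.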

How the results depend on the processing

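Where results changed, the cause was not tested. The 115 higher genes became 422 with a limit of 20 UMIs for comparison and 38 with 100, 44 in beds set by Plet1 and Krt14 alone, 28 after thinning, and 74 to 192 without single pieces. The 49 lower genes became 181, 17, 91 with equal weight per spot, 15 after thinning, 33 to 72 without single pieces, and 101 without KO piece 1 and WT piece 3, a setting chosen after seeing the data. The bed's share of KO spots was 13.6% with 2 rule UMIs, 6.12% with 5, 2.45% by Plet1 and Krt14 alone, 3.84% thinned and 8.58 to 12.2% without single pieces. The WT share was 1.25% by Plet1 and Krt14 alone, 1.58% thinned and 3.66 to 5.39% without single pieces. By Plet1 and Krt14 alone, Retnla and Hp both came to 0.666. Counts of 0 were set to 3 UMIs, so this shared value near the floor gives no direction. In the same beds the median of monocyte chemokines was -0.07, that of endothelial adhesion -0.11 and that of T cells 0.90. Without single pieces, Retnla ranged over 0.155 to 40.1 (lowest without KO piece 1), and Hbb-bs over 0.209 to 7.34, Hba-a1 over 0.0534 to 7.85 and Ly6d over 1.0 to 7.93 (each lowest without KO piece 3). Without KO piece 3 the metalloproteinase median was -0.21, and that of red blood cells ranged over -4.14 to 2.85. Igkc ranged over 0.202 to 1.43 and the B and plasma cell median over -1.26 to 0.41, both highest without WT piece 2, where Igha was 1.23. The T cell median ranged over -1.13 to 0.00 (highest without WT piece 3), and was 0.62 without each gene's top spot. Without KO piece 1 and WT piece 3, Retnla was 0.109, Ifit1bl1 1.05, and the wound macrophage and T cell medians -0.08 and 0.71. Of the 115 higher genes, 114 remained past 2-fold under TMM, 63 with equal weight per kind of spot (1 turned direction), 66 by Plet1 and Krt14 alone (11 turned), 72 after thinning (5 turned), and 68 without KO piece 1 and WT piece 3 (6 turned). Of the 49 lower genes, 49, 31, 36, 31 (3 turned) and 38 (2 turned) remained. Genes counted as turned can include values near the floor, such as Retnla and Hp by Plet1 and Krt14 alone. No paired analysis was possible because each group was 1 library and pieces carry no replicate number. With 1 library per group, differences between animals and between capture areas are inside every ratio.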

Other observations

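Metalloproteinases and their inhibitors had a median log2 ratio of 0.69 in the bed and 0.13 outside it. In the bed 3 of 10 compared were higher past 2-fold, beside 2.12% of all compared genes. Hypoxia and glycolysis genes had a median of -0.04, with 2 of 19 higher past 2-fold, beside 2.12% of all compared genes. These were Hk2 and Vegfa, both described above, and the Vegfa ratio was 1.08 without KO piece 3. Complement and acute-phase genes had a median of -0.19, but both of the 14 compared that were past 2-fold, Hp and Lrg1, were higher in the KO bed. The summed ratio of this list was 0.512 [0.471 to 0.557] in spots led by Arg1 and Spp1 and 2.24 [2.03 to 2.46] in spots led by Plet1 and Krt14.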
